A study of Mus musculus with 12 samples.

Results

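Dense acetylation domains are stretches of the mouse thymocyte genome where peaks of histone H3 acetylation at lysines 9 and 27 (H3K9ac/K27ac) lie close together. They were selected on the positions of called peaks in Zfatf/f thymocytes, here called floxed: neighbouring peaks were joined when at most 12.5 kb lay from the end of one to the start of the next. Joined stretches with 4 or more peaks were kept with all their peaks. This gave 379 domains with 2164 of the 13016 floxed acetylation peaks, or 16.6%. Thymocytes are the developing T cells of the thymus. The H3K9ac/K27ac label does not say whether the same histone carries both marks.

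The series profiles thymocyte chromatin by ChIP-seq in 12 samples: 6 ChIP libraries with peak lists, and 6 input or IgG control samples whose reads were not analysed here. The lists used are H3K9ac/K27ac in floxed and in Zfatf/f-LckCre thymocytes (Lck-Cre), the zinc-finger protein ZFAT in floxed, in Lck-Cre and in B6 (C57BL/6) cells, and H3 trimethylated at lysine 9 (H3K9me3) in floxed thymocytes. Animals were 4 to 5 weeks old, and cells were fixed with formaldehyde, digested with micrococcal nuclease and sonicated, per the labels' protocols. Both floxed and Lck-Cre animals carry Zfat flanked by recombination sites; in Lck-Cre animals the promoter of Lck, a T lineage kinase, drives Cre to remove the floxed sequence, and the labels of B6 animals name neither the floxed allele nor Cre. Each ChIP group had 1 library, so every comparison below is between libraries and no difference between conditions could be tested against replicate spread. How completely Zfat was deleted was not measured here. The thymocyte label was not checked against marker genes, because no annotation of mm9, the build of the lists, was used.

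Acetylation of these lysines marks active promoters and enhancers, where it loosens contacts between the histone tail and DNA and is bound by proteins that carry a bromodomain. Cells often hold such sites in clusters, around neighbouring active genes or along the control region of a single gene. Joining nearby peaks is also the opening step of the usual definition of super-enhancers, but here promoters were kept and signal was not ranked, so the domains are clusters of called peaks and no more. H3K9me3 marks silenced chromatin, and ZFAT is a nuclear protein with many zinc fingers that is known for roles in T cell development and survival.

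Most acetylation peaks stood alone or in small groups. Of the 8820 joined groups, 6419 were single peaks (49.3% of all peaks), 1633 were pairs and 389 held 3 peaks. Domains of 4 peaks were the commonest, with 165 of 379 (43.5%). There were 82 domains of 5 peaks, and 28 domains had 10 or more, with 357 peaks in all. The rule set these sizes, so they are a description. At its edges, the longest gap joined was 12488 bp and the shortest gap not joined was 12512 bp. In the 1000 bp under the limit there were 161 gaps, and in the 1000 bp over it 127, so the spacing had no break there. On the limit of 4 peaks, 165 groups had just enough and 389 had 1 too few.

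**Figure D1:**
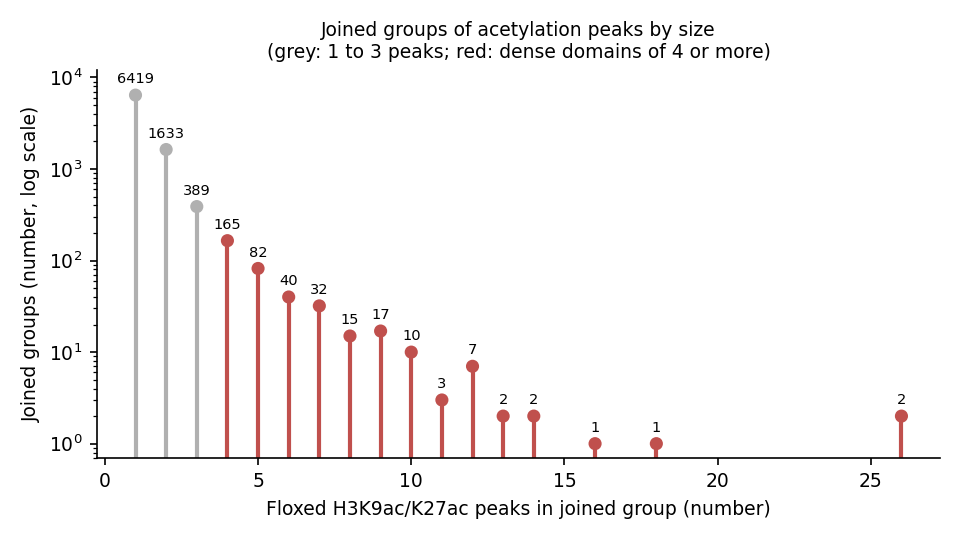
Number of joined groups (log scale) against the number of floxed H3K9ac/K27ac peaks in the group. The 379 groups of 4 or more peaks are the dense domains, and both groups of 26 peaks stand apart from the next size, 18.

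The domains were mostly gap. They spanned a median of 17568 bp, from 2001 to 123769 bp, and 7530808 bp in total. Called peaks covered 678773 bp of that, or 9.01%. Neighbouring peaks in a domain were a median of 2751 bp apart; 538 of the 1785 gaps (30.1%) were 1000 bp or shorter and 142 (7.96%) were over 10000 bp. The most compact domain held 4 peaks in 2001 bp of chromosome 13, from 30075848 to 30077848. A domain on chromosome 10 at 13684349 to 13687316, with 4 peaks in 2968 bp, had the highest covered share, 78.7%. Both were picked out after their values were seen.

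Peaks inside domains were individually modest. The P score, the −log10 p of the authors' peak caller, had a median of 20.6 in domains and 27.3 for the 10852 peaks outside them. The fold, the caller's ratio of ChIP to local background, was nearer, at 8.36 inside and 8.67 outside. Domain peaks were also shorter, with a median of 227 bp against 306.5 bp. The fragment number at the summit (the pileup), inferred from fold and P score together, had a median of 28 inside and 40 outside. These values belong to the list that chose the members and carry no test.

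Scores were lower in larger groups. The median P score was 29.1 for single peaks, 26.0 for pairs, 22.9 for groups of 3, 21.5 in domains of 4, 22.5 in domains of 5 and 17.96 in domains of 10 or more. Peaks scoring at least 50 made up 24.2% of single peaks and 8.12% of peaks in domains of 10 or more. The strongest peak of each domain had a median P score of 51.0 and the other 1785 domain peaks 17.5, an order that picking the strongest fixes. Outermost and inner peaks of the domains both had a median P score of 20.6.

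The domains were spread unevenly over the chromosomes. Chromosome 8 had the highest share of its acetylation peaks in domains, 231 of 831 (27.8%) in 34 domains, and chromosome 19 followed with 26.1%. Chromosome 11 had the most domains, 52, with 290 of its 1240 peaks (23.4%). At the other end, chromosome 1 had 28 of 678 peaks (4.13%) in 6 domains. The X chromosome had 3 domains with 11.02% of its peaks. Peak density differed as well. Per Mb of the stretch they span, there were 10.5 acetylation peaks on chromosome 11, 8.32 on 19 and 6.49 on 8. Chromosome 1 had 3.53 and the X chromosome 1.48. The part of density in the shares was not tested.

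**Figure D2:**
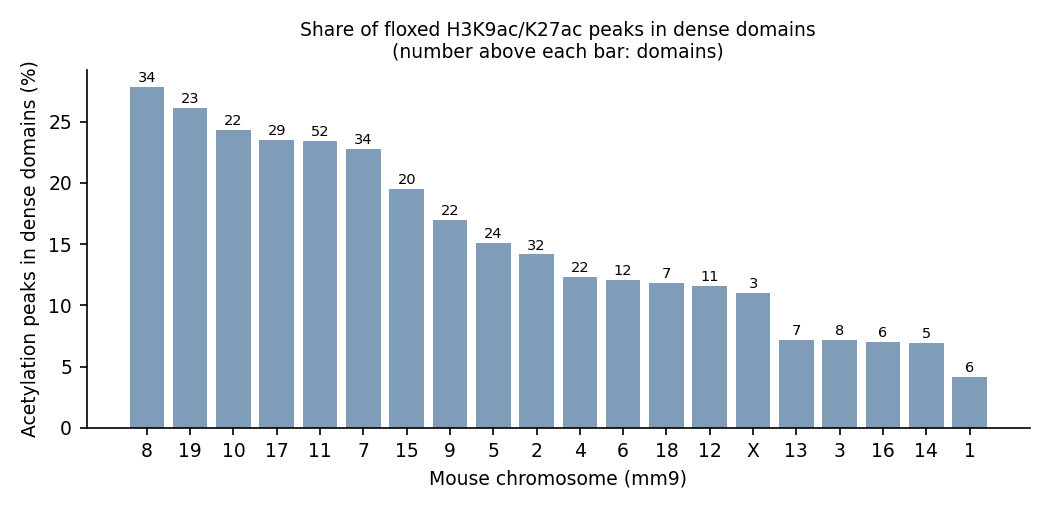
Percent of floxed H3K9ac/K27ac peaks that lie in dense domains, by mouse chromosome, with the number of domains above each bar. Chromosomes 8, 19, 10, 17, 11 and 7 are over 20%, and chromosome 1 is lowest at 4.13%.

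Domains themselves lay near one another. The median distance to the nearest other domain was 155497 bp, and 159 of 379 domains (42.0%) had another within 100 kb. The densest 2 Mb of the genome was on chromosome 10, where 16 domains between 79224796 and 81063680 took 144 of the 189 acetylation peaks. The next windows were on chromosome 19 at 5688057 to 7349152, with 13 domains and 66 domain peaks, and on chromosome 17 at 34045571 to 36017126, with 11 domains and 68 domain peaks. Of the 10 domains with the most peaks, 4 lay in the chromosome 10 window.

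The largest domain lay on chromosome 8 at 122906354 to 123030122 and held 26 peaks in 123769 bp, with 6.01% of the span covered. No single peak dominated it. Its strongest, at 123028823 to 123029369, had a P score of 52.8, a fold of 17.2 and a pileup of 51, and the next, at 123018702 to 123019152, had a P score of 52.5. Further domains lay on both sides: 13 peaks at 122800453 to 122842276, with 64077 bp between, and 12 peaks at 123056703 to 123090973, with 26580 bp between. Together the 3 domains placed 51 peaks within 290521 bp. The strongest peak of that cluster was in the smallest of the 3, at 123061013 to 123062236, with a P score of 147, a fold of 34.8 and a length of 1224 bp.

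A second domain of 26 peaks lay on chromosome 10 at 80776107 to 80863563 and was shorter, at 87457 bp. Its P scores ran from 5.8 to 59.0, and the highest belonged to the peak at 80812788 to 80813156, with a pileup of 76. On the same chromosome, 18 peaks lay at 79446750 to 79517023, 14 at 79578606 to 79642593 and 12 at 80118755 to 80165555. The first of these had its strongest peak at 79480555 to 79480754 (P score 59.5). The strongest peak of the domain of 14 peaks, at 79605144 to 79605354, had a P score of 66.4 and a fold of 23.4.

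The others among the 10 largest were on chromosomes 7, 17, 18 and X. Chromosome 7 had 16 peaks at 52942027 to 52986813, the X chromosome 14 peaks at 11705100 to 11737746, and chromosome 17 had 13 peaks at 27054104 to 27110364. The strongest peak of the X domain, at 11717211 to 11717836, had a fold of 22.1 from a pileup of 36. Chromosome 18 had 12 peaks at 35989189 to 36033481, with the highest median P score of the 10 largest domains, 30.0, and a strongest peak at 36007772 to 36008201 with a P score of 83.6. In the other 9 the median P score lay between 13.8 and 20.8.

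**Figure D3:**
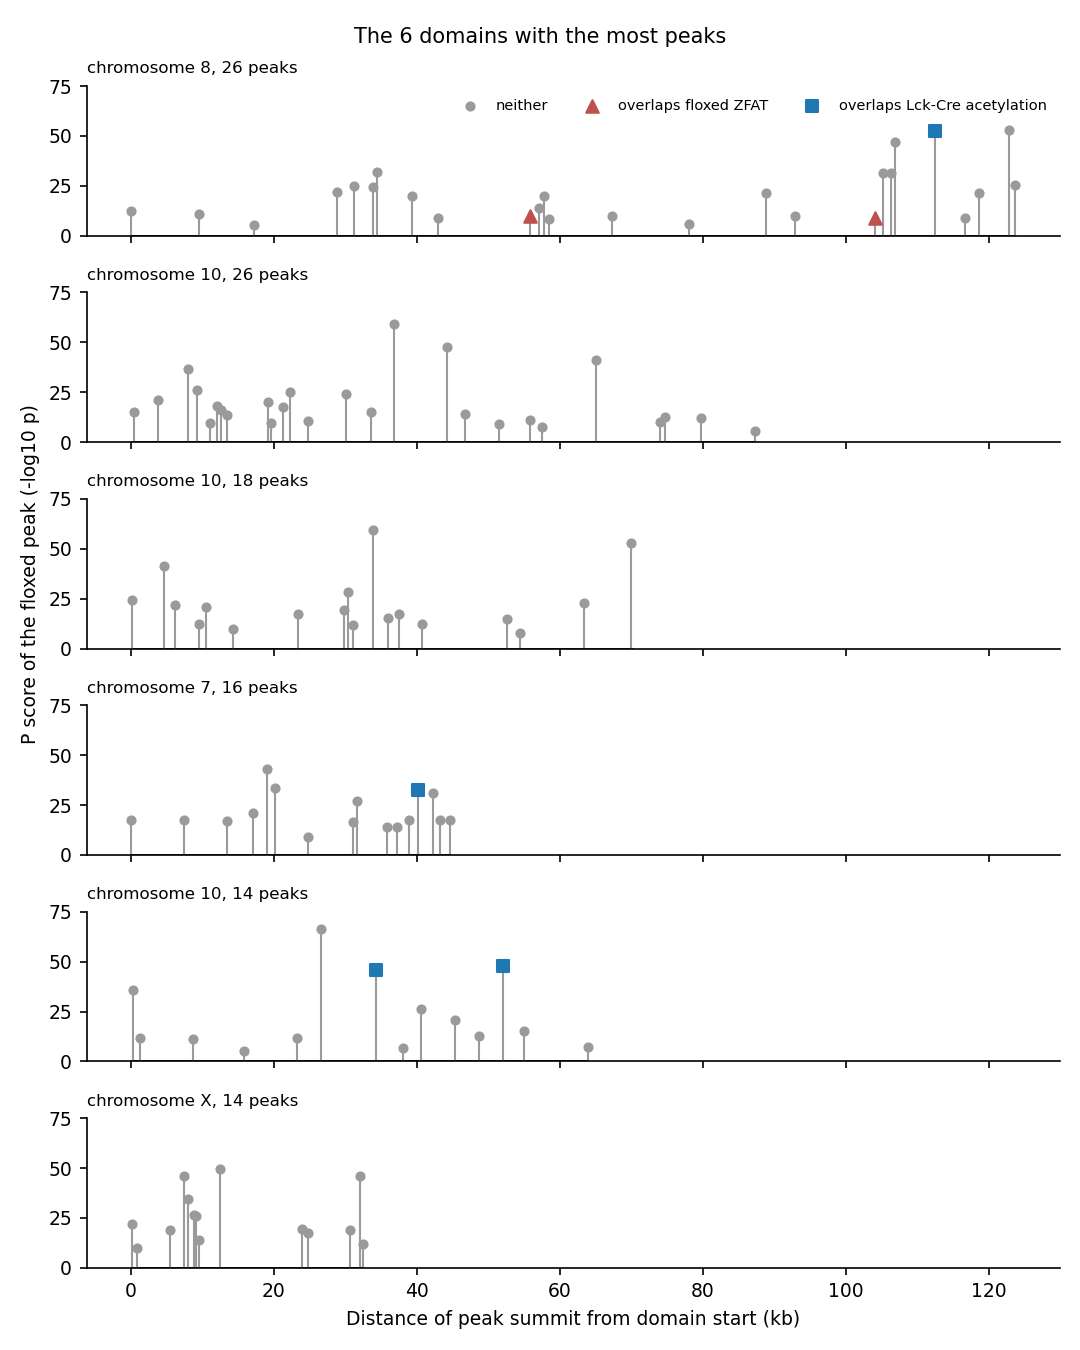
P score (−log10 p) of each floxed acetylation peak against the distance of its summit from the domain start, in kb, for the 6 domains with the most peaks. Triangles overlap a floxed ZFAT peak and squares a Lck-Cre acetylation peak. In 3 of the 6 domains no acetylation peak overlaps either, and most peaks stay under a P score of 50.

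The next question was how much of each domain was also called in Lck-Cre thymocytes. Few domain peaks were: 170 of 2164 overlapped a Lck-Cre H3K9ac/K27ac peak by at least 1 bp, or 7.86% (exact Clopper-Pearson 95% interval 6.76 to 9.07). Over all 13016 floxed acetylation peaks the share was 12.3%, and outside domains it was 13.2% (12.5 to 13.8). The intervals inside and outside did not meet. They cover counting error only, and peaks of one domain share a neighbourhood and are not independent. By inferred depth the Lck-Cre library was smaller, with about 1340000 inferred fragments against 2190000 in floxed, and its list had 2225 peaks. The part of depth in the difference between the lists was not tested.

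The Lck-Cre share was lower in larger groups. It was 14.02% for single peaks, 12.3% for pairs and 11.1% for groups of 3. In domains of 4 peaks it was 9.39% (62 of 660), and in domains of 5 it was 9.76% (40 of 410). In domains of 10 or more it was 4.76% (17 of 357, interval 2.80 to 7.51). The median P score of the floxed peaks was lower along with it, as given above.

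Peak strength moved with this overlap. Among peaks whose floxed P score was at least 50, 34.5% of domain peaks (110 of 319, interval 29.3 to 40.0) and 35.0% of outside peaks (854 of 2440, 33.1 to 36.9) had a Lck-Cre peak. Strong domain peaks were thus overlapped about as often as strong peaks elsewhere, within these intervals. At P scores from 20 to 50 the shares were 5.86% in domains (46 of 785, 4.32 to 7.74) and 10.7% outside (467 of 4371, 9.78 to 11.6), and these intervals did not meet. In deciles of P score the domain share was the lower in deciles 1 to 4 and 6 to 8 and the higher in deciles 5, 9 and 10. Only in the eighth did the intervals not meet. There, 7.64% of domain peaks (3.87 to 13.3) and 19.6% of outside peaks (17.3 to 22.0) were overlapped. Domain peaks in that decile were also shorter, with a median of 353.5 bp against 425 bp. In the highest decile the shares were 46.3% and 45.4%.

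**Figure D4:**
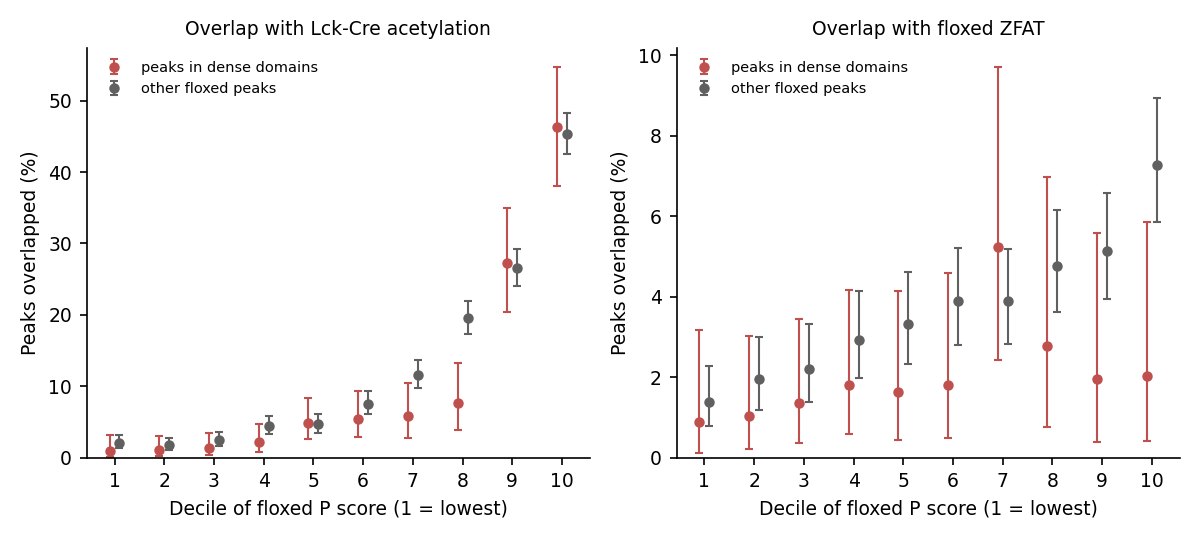
Percent of floxed acetylation peaks overlapped by Lck-Cre acetylation (left) and by floxed ZFAT (right), by decile of floxed P score, for domain peaks and other peaks; bars are exact 95% intervals for counting error. For Lck-Cre the domain and other peaks are close in the 2 highest deciles and apart in the eighth (7.64% and 19.6%).

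Counted by domain, 138 of 379 (36.4%) had at least 1 peak with a Lck-Cre counterpart. The share was 23.6% among groups of 2 or 3 peaks and 25.6% over all groups of 2 or more, which have fewer peaks to offer. In most of the 138 a single peak was found again: 111 domains had exactly 1, 27 had 2 or more, and 3 had 3 or more. It was mostly the strongest one, in 93 of the 138 domains (67.4%). Of the 379 strongest peaks 24.5% were overlapped, against 4.31% of the 1785 other domain peaks. Domains with a Lck-Cre counterpart had a median strongest P score of 69.6, and the 241 without had 43.5.

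Where both libraries had a peak, the Lck-Cre peak was the lower one. In 174 pairs of a domain peak and a Lck-Cre peak the median fold was 13.8 in floxed and 5.68 in Lck-Cre, and the Lck-Cre fold was the lower in 168 pairs and the higher in 6. The median pileups were 73.5 and 21. The summits were a median of 25 bp apart. These folds come from libraries of different depth and controls that the headers do not name, so they are set side by side only. Over the whole lists the median fold was also the lower in Lck-Cre, 4.86 against 8.62 in floxed. Pairs outside domains are not given here, so whether the pair counts are particular to domains was not tested.

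Of the 10 largest domains, 5 had no peak with a Lck-Cre or a floxed ZFAT counterpart. Floxed ZFAT peaks did lie between the acetylation peaks of the chromosome 10 domains of 26 peaks (2) and 18 peaks (1). The chromosome 8 domain of 26 peaks had 1 Lck-Cre counterpart, at the peak at 123018702 to 123019152, where the fold was 11.8 in floxed and 8.20 in Lck-Cre. The chromosome 10 domain of 26 peaks, and the domains of 18 peaks on chromosome 10, 14 on the X, and 13 on chromosomes 17 and 8, had none. The chromosome 7 domain had 1, at 52982074 to 52982355, with folds of 10.0 and 7.13. The chromosome 10 domain of 14 peaks had 2, neither at its strongest peak. Of the 164 peaks in the 10 largest domains, 9 had a Lck-Cre counterpart (5.49%), and 4 of the 9 were in the chromosome 18 domain.

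That chromosome 18 domain had the most Lck-Cre counterparts of the 10 largest. Its 4 overlapped peaks met 6 Lck-Cre peaks, because 3 of these fell on the 1721 bp peak at 35989189 to 35990909. The floxed fold there was 11.1, and the Lck-Cre folds were 5.65, 5.26 and 5.12. The peak at 35999000 to 35999155 had a floxed fold of 6.39 and a Lck-Cre fold of 6.45. At 36007772 to 36008201 they were 11.7 and 4.92, and at 36009181 to 36009387 they were 11.3 and 11.1. The 2 peaks with nearly equal folds had lower floxed pileups, 40 and 18, than the others, 78 and 114.

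Smaller domains with several counterparts were few. The domain of 5 peaks on chromosome 17 at 28638986 to 28660418 had 4, with floxed folds of 6.56, 13.6, 13.5 and 12.9 beside Lck-Cre folds of 3.61, 4.99, 10.1 and 8.20. The domain of 6 peaks on chromosome 17 at 34724654 to 34743261 had 3, with floxed folds of 20.5, 19.4 and 17.4 beside 5.35, 3.95 and 9.67. In the chromosome 8 domain of 12 peaks the strongest peak, of floxed fold 34.8 and pileup 113, met a Lck-Cre peak of fold 4.75 and pileup 18. In 10 domains at least as many peaks were overlapped as not.

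The Lck-Cre list on its own had almost no domains. By the same joining rule it gave 2, with 10 of its 2225 peaks. One, of 6 peaks at 35989816 to 36009380 on chromosome 18, and the other, of 4 peaks at 28649739 to 28660415 on chromosome 17, lay inside floxed domains already described. Single peaks made up 85.0% of that list, against 49.3% of the floxed list. A list with fewer peaks has fewer neighbours to join, and this was not corrected for.

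ZFAT was rare in the domains. Floxed ZFAT peaks overlapped 41 of 2164 domain peaks, or 1.89% (1.36 to 2.56), against 3.43% of all floxed acetylation peaks and 3.74% (406 of 10852, 3.39 to 4.12) outside. The share was 4.03% for single peaks, 3.18% in domains of 4 (21 of 660) and 0.840% in domains of 10 or more (3 of 357). One domain on chromosome 11 contributed 4 of the 41; without it the shares were 1.71% in all domains (37 of 2160, 1.21 to 2.35) and 2.59% in domains of 4. Among the peaks that scored at least 50, 2.19% of domain peaks (7 of 319, 0.887 to 4.47) and 6.19% of outside peaks (151 of 2440, 5.27 to 7.22) had ZFAT, and these intervals did not meet. At P scores from 20 to 50 they did, with 2.68% in domains (21 of 785, 1.66 to 4.06) and 3.91% outside (3.36 to 4.53). From 10 to 20 the shares were 1.04% and 2.38%, and under 10 the domain share was the higher, at 1.73% against 1.42%. By decile the domain share was also the higher in the seventh, at 5.23% against 3.88%, and the lower in the others. The intervals inside and outside met in every decile. In the highest they only just met, at 0.423 to 5.85 in domains and 5.84 to 8.93 outside.

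By domain, 33 of 379 (8.71%) had a peak with ZFAT. The share was 6.63% among groups of 2 or 3 peaks and 6.96% over all groups of 2 or more, which have fewer peaks to offer. Per peak, it was 1.89% in domains, 3.31% in pairs and 3.34% in groups of 3. Only 6 domains had 2 or more peaks with ZFAT. ZFAT lay on the strongest peak in 9 of the 33 domains. Of the 379 strongest peaks 2.37% had ZFAT, against 1.79% of the 1785 other domain peaks and 3.43% of all floxed acetylation peaks. In all, 44 of the 1719 floxed ZFAT peaks fell within domain spans, 39 of them on an acetylation peak. Of these 33 domains, 16 also had a peak with a Lck-Cre counterpart and 17 did not. A further 122 domains had Lck-Cre acetylation alone, and 224 (59.1%) had neither.

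Some peaks carried both. Of the 41 domain peaks with ZFAT, 2 also had a Lck-Cre acetylation peak (4.88%, 0.596 to 16.5), beside 168 of the 2123 domain peaks without ZFAT (7.91%, 6.80 to 9.14). Outside domains 78 of the 406 peaks with ZFAT had one (19.2%, 15.5 to 23.4). The interval of the 41 is wide with so few peaks, and it meets both others. Intervals that meet do not show that shares are equal, and these differences were not tested. The 2 peaks were on chromosome 11, at 69727549 to 69728121 and at 107331007 to 107331620, each in a domain of 4 peaks. The first had acetylation folds of 11.3 (floxed) and 8.37 (Lck-Cre) and a ZFAT fold of 6.84. The second had acetylation folds of 9.58 and 4.34 and a ZFAT fold of 5.26.

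The ZFAT peaks on domain peaks had low folds, as did the ZFAT list as a whole, whose median fold was 5.35. The 404 ZFAT peaks on acetylation peaks outside domains had a median fold of 5.57 and a median P score of 9.62, and 65 of them (16.1%) scored at least 20. The 39 distinct ZFAT peaks on domain peaks had a median fold of 5.51 and a median P score of 8.61. Of these, 3 scored at least 20, and 2 of the 3 were at the ceiling that the caller's P score reaches. The other 37 had a median fold of 5.51, from 3.41 to 10.7, and a median pileup of 13 fragments, from 5 to 22. ZFAT and acetylation summits were a median of 52 bp apart. In the largest domain, on chromosome 8, ZFAT lay on 2 low acetylation peaks. At 122961821 to 122962242 the ZFAT fold was 6.13 from 8 fragments (exact Poisson interval 3.45 to 15.8) with summits 318 bp apart. At 123010371 to 123010594 the ZFAT fold was 3.76 from 13 fragments.

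Other domains with 2 ZFAT peaks were of middle size. On chromosome 11 at 117115562 to 117158127, a domain of 9 peaks had ZFAT on both of its strongest peaks: at 117128303 to 117128944, with an acetylation fold of 34.03 and a ZFAT fold of 5.92, and at 117151703 to 117152326, with 7.69 and 3.41. On chromosome 17 at 35998329 to 36017126, a domain of 5 peaks had ZFAT folds of 10.4 and 6.36. The domain of 7 peaks on chromosome 17 at 45683803 to 45710165 had ZFAT folds of 4.24 and 3.82. A domain of 5 peaks on chromosome 4 at 154518006 to 154531661 was the sixth with 2 or more. In B6 thymocytes, ZFAT called against input was found at 2 of these places, both on chromosome 17. Its fold was 6.88 at the peak at 45709419 to 45710165 and 3.84 at the peak at 36016763 to 36017126.

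The chromosome 11 domain at 84683121 to 84694034 stood apart, with ZFAT on each of its 4 acetylation peaks. A floxed ZFAT peak at 84683044 to 84684591, of fold 122, covered the first 3, and another at 84693207 to 84694031, of fold 95.4, covered the fourth. The acetylation folds were ordinary, at 6.68, 5.28, 9.80 and 10.7. ZFAT in B6 thymocytes gave folds of 140 and 158 against input, and 122 and 137 against IgG, at overlapping positions. The B6 peaks called against IgG met all 4 acetylation peaks. Those called against input met 3 and missed the one at 84684438 to 84684598. In Lck-Cre thymocytes ZFAT peaks were also called at both ends, with folds of 8.81 and 12.6 and pileups of 59 and 85. These were the only Lck-Cre ZFAT peaks on any domain peak (2 of 2164, beside 0.154% of all floxed acetylation peaks). No Lck-Cre acetylation peak and no H3K9me3 peak lay in the domain.

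**Figure D5:**
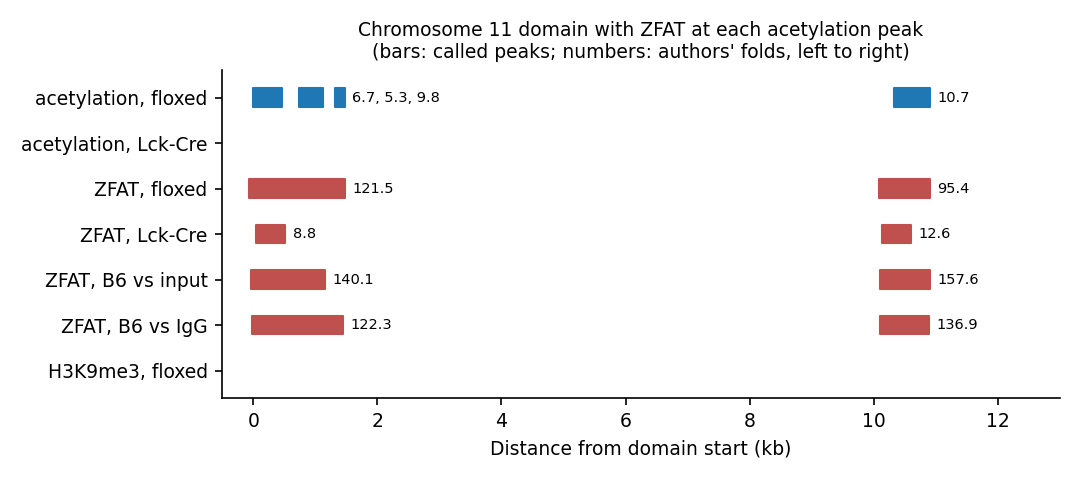
Called peaks of 6 lists and of H3K9me3 along the chromosome 11 domain with ZFAT at every acetylation peak, as distance from the domain start in kb, with the authors' folds beside them. ZFAT was called at both ends in floxed, B6 and Lck-Cre thymocytes, with Lck-Cre folds of 8.81 and 12.6 against 122 and 95.4 in floxed; the rows of Lck-Cre acetylation and H3K9me3 are empty.

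B6 ZFAT, from another library, was lower in the domains than outside for peaks called against input. These overlapped 33 domain peaks (1.52%, 1.05 to 2.13, beside 2.96% of all acetylation peaks) and 3.24% of outside peaks (2.92 to 3.59). Peaks called against IgG overlapped 16 domain peaks (0.739%, 0.423 to 1.20), beside 1.04% of all acetylation peaks. That interval meets the one outside (0.909 to 1.31). The chromosome 11 domain with ZFAT on each peak held 4 of the 16. Without it the share was 0.556% (12 of 2160, 0.287 to 0.968), and the interval still meets that outside. Against input, the share without it was 1.39% (30 of 2160, 0.939 to 1.98). By inferred depth the B6 library was the smallest, at about 632000 inferred fragments. Of the 41 domain peaks with floxed ZFAT, 7 had a B6 peak called against input (17.1%, 7.15 to 32.1). Outside domains 85 of 406 had one (20.9%, 17.1 to 25.2). Of the 7, 3 were in the chromosome 11 domain with ZFAT on each peak, where 2 B6 peaks met them. H3K9me3 overlapped 12 domain peaks in 11 domains (0.555%, 0.287 to 0.967, an interval that holds the 0.807% of all acetylation peaks). It was on the strongest peak of none of the 379 domains. Strong peaks elsewhere rarely had it either: 1 of the 2440 outside peaks scoring at least 50 (0.041%). One of the 12 was in the chromosome 8 domain of 26 peaks, at 122963204 to 122963559.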

How the data were processed

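The authors deposited peak lists in mm9, 1 per ChIP library and 2 for B6 ZFAT (against input and IgG). The submitters' processing notes name Trimmomatic 0.22, SAMtools 0.1.18, CASAVA 1.8.1 and MACS, without their roles. No aligner is given in the sources used here, nor the controls of the floxed and Lck-Cre lists. The p threshold was 1e-05 and the fragment length 150 bp, per the file headers. The deposited P score is the −log10 p and the deposited fold is the ratio of ChIP to local background; both are the authors' values.

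From the deposited positions, taken as 1-based and closed, peaks were joined at gaps of at most 12.5 kb, and groups of 4 or more were kept. Overlap meant 1 shared bp. Shares have exact Clopper-Pearson 95% intervals (SciPy 1.17.1, pandas 2.3.3). Pileups were inferred from fold = (pileup + 1)/(background + 1) and a Poisson tail, matched to within 0.0001 of the P score. Of floxed acetylation peaks, 100% gave a whole pileup. Each fragment total was the lowest inferred background of a list times the effective genome size (1870000000), divided by the fragment length of 150 bp. It is not a count of reads, and whether the caller had scaled that background was not checked. Joining, overlap and pileup steps were tested on simulated data. Members, rules and lists were chosen with earlier results of these data known. Domains were named by rule: the 10 with most peaks, the 5 longest, and the 5 with most peaks overlapped by floxed ZFAT or by Lck-Cre acetylation; the few others were picked after their values were seen. No gene names or sequences are given, because no mm9 annotation or genome was used.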

Additional observations from a re-analysis of the deposited data

How the results depend on the processing

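The number of domains (379) follows the joining rule: it was 184 with gaps of at most 5000 bp, 570 with 25000 bp, 768 with 3 or more peaks and 132 with 6 or more. The share of domain peaks with floxed ZFAT (1.89%) was 0.994% with 5000 bp gaps and 2.48% with 25000 bp gaps. It was 2.40% with 3 or more peaks and 1.28% in domains of 6 or more. It was 2.09% for floxed acetylation peaks scoring at least 10, and 2.26% when within 500 bp counted. For ZFAT peaks scoring at least 10 it was 0.739%. Domains with ZFAT (33) numbered 9, 77, 71 and 11 under the 4 joining settings in that order, and 12 with the ZFAT threshold. The share with Lck-Cre acetylation (7.86%) was 6.22% in domains of 6 or more, 9.25% for floxed peaks scoring at least 10, 5.22% for Lck-Cre peaks scoring at least 10, and 10.2% when within 500 bp counted. Domains with Lck-Cre acetylation (138) numbered 66, 236, 252 and 55 under the joining settings. For these 2 lists, both B6 lists and H3K9me3, the domain share was below the outside share in all 10 alternatives. The alternatives reuse largely the same peaks, so their agreement is not independent support. For H3K9me3 and for B6 ZFAT against IgG, the main intervals inside and outside domains met. The 500 bp setting, the 75 bp around the summit, and the B6 and H3K9me3 alternatives were added after seeing the data. No paired analysis was possible because each ChIP group had 1 library. The inferred depth differs between libraries, and its part in the counts was not tested. Counts as small as the 2 ZFAT-overlapped peaks shared with Lck-Cre acetylation have wide intervals.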
